A study of Oreochromis niloticus with 8 samples.

Results

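The genes described here encode the machinery that makes messenger RNA: the subunits of RNA polymerase II, its general transcription factors and TFIID, Mediator, elongation factors and the Integrator complex, together with the closely named subunits and factors of RNA polymerase III. The rule used the gene name and a minimum level. Of the 29533 genes that the deposited lists hold, 110 had an identifier starting with polr2, polr3, gtf2, gtf3, cdk9 or ccnt, with taf, med, supt or ints followed by a digit, or equal to ell, ell2 or ell3, and the 108 of these with a group mean of at least 1 TPM (transcripts per 1000000) in control or cold are the members. All 108 reached that level in both groups. The study compared polyadenylated midbrain RNA of Nile tilapia (Oreochromis niloticus), a warm-water cichlid fish, in 4 control libraries from fish held at normothermy and 4 cold libraries from fish exposed to cold, and its title names oxytocin signalling in the response to cold. The sources used here do not give the temperature, the length of exposure, or the age, sex and strain of the fish. The labels do not say whether a library came from 1 fish or several. The spread behind each p-value is that between libraries of the same group, so it may be partly technical.

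As background, RNA polymerase II is recruited to a promoter by TFIID, which recognises promoter DNA through the TATA-binding protein and its associated factors (TAFs), and by the general factors TFIIA, TFIIB, TFIIE, TFIIF and TFIIH, while Mediator connects gene-bound activators to the polymerase. After a short stretch the polymerase pauses under the control of the factors DSIF and NELF. The kinase P-TEFb releases it into productive elongation, and Integrator cleaves the nascent RNA of many paused polymerases and ends their transcription. In the brain, release from pausing is known as a step at which activity-dependent genes are switched on quickly. The roles given to single genes below are those of the mammalian or yeast proteins of the same names.

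All values were read as TPM, which corrects for gene length, and under that reading levels of different genes can be set side by side. Each log2 change is the cold mean minus the control mean of log2(TPM + 1) with its standard error (SE), other errors are SD, n is 4 libraries per group throughout, and single values are listed in order of replicate number. Genes were called in limma below an adjusted p of 0.05 over all 18863 genes tested. The correlation between libraries was 0.968 to 0.982 within a group and 0.943 to 0.963 between the groups, and control 4 and cold 2 lay apart from the other 6 on the second principal component (16.9% of the variance). In these bulk libraries, fewer cells of a type and less RNA per cell cannot be told apart. Neuronal markers summed to 6026 to 6568 TPM in control and 5661 to 6346 TPM in cold, with 2 of 9 called lower. Midbrain markers summed to 80.8 to 113 TPM in control and 58.7 to 72.6 TPM in cold (4 of 8 lower), and hypothalamic peptide and transcription factor genes to 951 to 3184 TPM in control and 1131 to 6254 TPM in cold (1 of 5 lower, namely nkx2.4a at 25.7 against 5.97 TPM, limma adjusted p = 4.26e-06), so the tissue also held hypothalamic RNA. Markers of microglia and macrophages summed to 55.4 to 89.4 TPM in control and 27.4 to 38.5 TPM in cold (3 of 3 lower), those of radial glia and astroglia to 7298 to 8227 TPM in control and 6043 to 8195 TPM in cold (2 of 7 lower), those of oligodendrocytes and myelin to 9285 to 12985 TPM in control and 10117 to 12414 TPM in cold (2 of 7 lower), and those of endothelium to 126 to 186 TPM in control and 115 to 154 TPM in cold (1 of 6 lower). Telencephalic, pituitary and red cell markers had no called gene. The telencephalic markers summed to 18.5 to 28.7 TPM in control and 15.2 to 100.2 TPM in cold. Pituitary and red cell sums were at most 32.3 and 112 TPM, and hindbrain markers, with 1 gene tested, summed to at most 3.88 TPM. The red cell symbols hba1, hbb and epb42 had no match, so that sum holds no haemoglobin transcript and cannot show how much blood was present. Of the microglial and macrophage symbols, c1qa, aif1 and mpeg1 had no match. No matched marker was at 0 in all 8 libraries. Of all tested genes, 23.6% were called lower in cold, which is the background for these marker counts. The part of these markers in the results below was not tested.

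Transcription machinery genes changed in both directions. The general factors of polymerase II, Mediator and Integrator each held both rises and falls. Of the 108 members, 28 rose and 17 fell in cold, and 63 were not called. The called share, 41.7%, was near the 36.7% of all tested genes. The members called higher made up 25.9% of the list, against 13.0% of all tested genes, and those called lower 15.7%, against 23.6%. The median log2 change was 0.05 for the members and -0.09 for all tested genes.

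This split depends in part on the scaling of the libraries. Median-of-ratios scaling moved the median over all tested genes (log2 change) from -0.09 to near 0, and 35.3% of tested genes were then called, 18.5% higher and 16.8% lower. On that scale 37 members (34.3%) were higher and 13 (12.04%) lower. All 28 rises remained. The falls that did not pass were those of ints14, med7, med9 and med22 (limma adjusted p = 0.166, 0.195, 0.159 and 0.0682), and 9 further members were called higher, namely ell2, gtf3c2, ints1, med12, polr2l, taf3, taf11, taf12 and taf13. No called member changed direction.

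**Figure D1:**
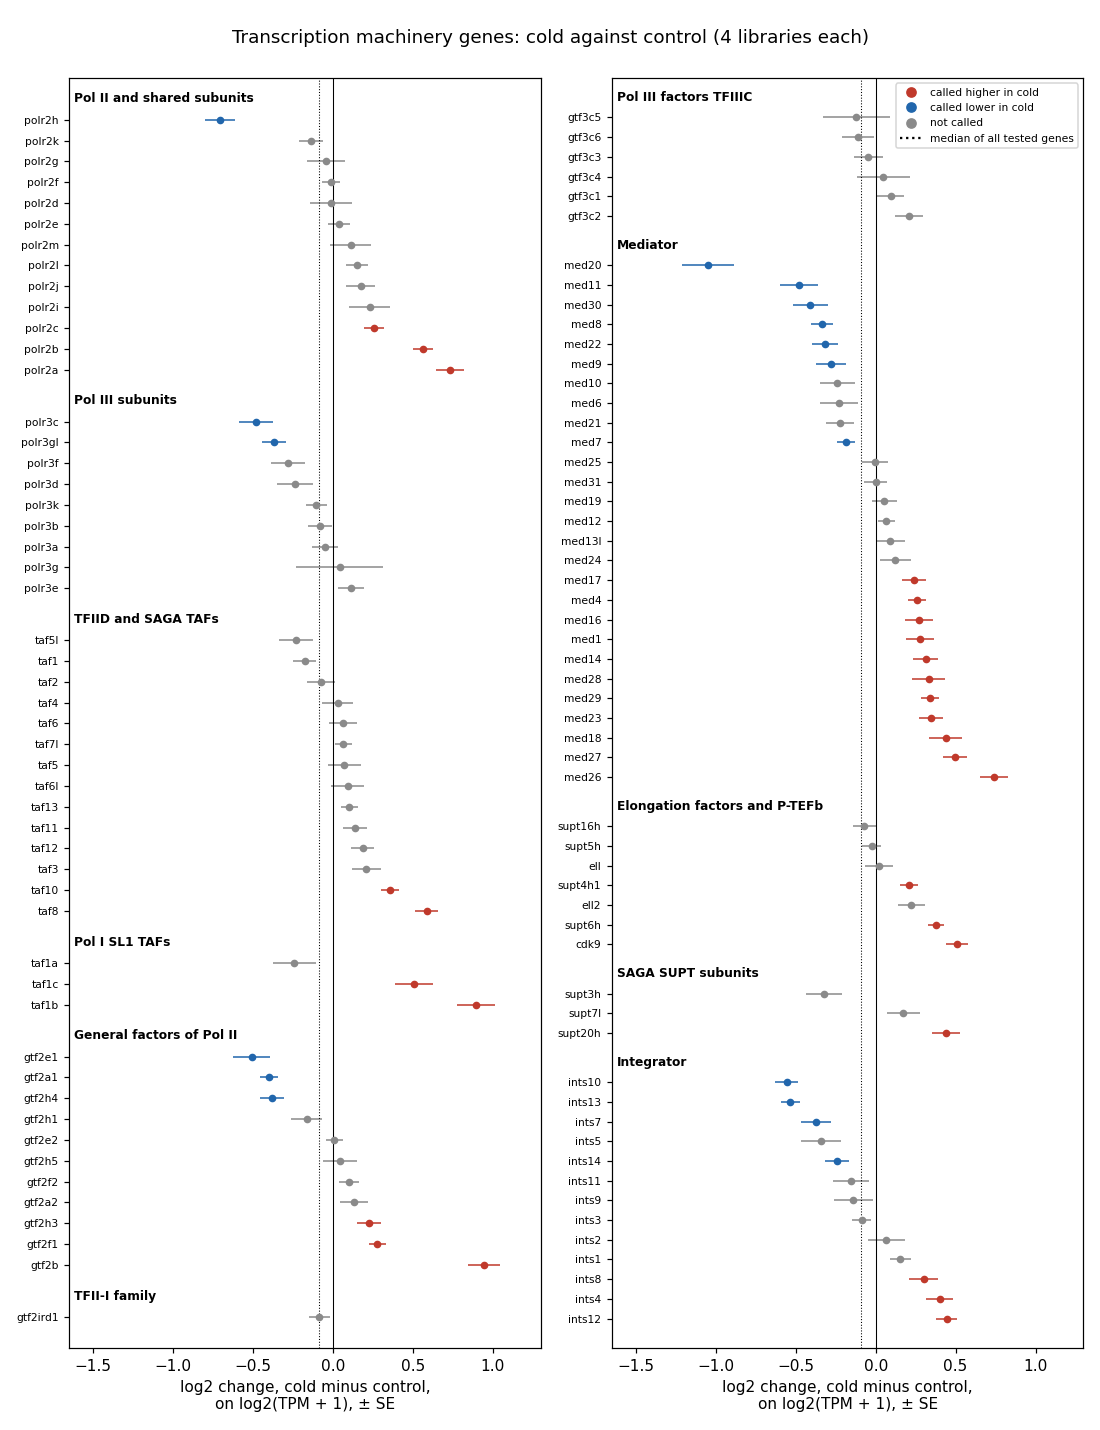
Log2 change of 107 of the 108 members (points, cold minus control) with its SE (bars), grouped by role and sorted within each group. Rises (red) run to 0.94 for gtf2b, falls (blue) to -1.05 for med20, and the dotted line marks the median of all tested genes at -0.09.

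Values of control and cold libraries did not overlap for 46 members (42.6%, against 36.9% of all tested genes). Most differences were modest. A called change of at least 1.5-fold on the log2(TPM + 1) scale was held by 6 members, namely gtf2b, taf1b, med26, polr2a, polr2h and med20, and med20 alone reached 2-fold. All 6 held their call when any single library was left out.

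The largest subunit genes of RNA polymerase II rose. The gene polr2a encodes the catalytic subunit with the long repetitive tail that carries the phosphorylation marks of initiation and elongation. It measured 25.0, 23.7, 24.7 and 22.8 TPM in control and 36.7, 37.6, 40.4 and 48.2 TPM in cold, so each cold library lay above every control library (log2 change 0.73 ± 0.09, limma adjusted p = 0.000381; 1.69-fold between group means). The gene polr2b, of the second-largest subunit, which closes the active centre together with the first, measured 26.9, 28.9, 27.7 and 30.9 TPM in control and 45.3, 41.8, 41.0 and 43.0 TPM in cold (log2 change 0.56 ± 0.06, limma adjusted p = 0.000248). Its groups did not overlap either. A smaller rise was found for polr2c, whose product starts the assembly of the polymerase (47.7, 50.3, 51.5 and 49.2 TPM in control and 54.7, 65.2, 60.5 and 58.0 TPM in cold; log2 change 0.26 ± 0.06, limma adjusted p = 0.0121). The rise of polr2c was not called when control 4 and cold 2 were both left out (limma adjusted p = 0.0515).

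The only fall among the 13 polr2 genes was that of polr2h, which encodes a small subunit shared by polymerases I, II and III. Its values were 21.8, 20.9, 21.5 and 20.9 TPM in control and 12.4, 15.4, 12.03 and 11.01 TPM in cold (log2 change -0.71 ± 0.10, limma adjusted p = 0.000671). The control libraries were nearly level, and every cold library was lower. The other shared subunit genes were not called, with 69.9 and 71.9 TPM in control and cold for polr2e, 85.0 and 84.3 TPM for polr2f, 187 and 169 TPM for polr2k and 128 and 143 TPM for polr2l (limma adjusted p from 0.111 to 0.871). Over both groups the most abundant polr2 transcripts were polr2k and polr2j (158 and 178 TPM), and polr2k was called lower when control 4 was left out (limma adjusted p = 0.0182). Genes of the stalk, polr2d and polr2g, measured 44.5 and 43.7 TPM and 62.2 and 59.7 TPM. The remaining members were polr2i, which acts in transcript cleavage (52.1 and 61.4 TPM), and polr2m, of a protein that binds the polymerase in place of TFIIF (7.07 and 7.82 TPM), and neither was called (limma adjusted p = 0.193 and 0.537).

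Among the general factors, gtf2b rose most. On the log2(TPM + 1) scale its change was the highest of all members, but with a pseudocount of 0.1 taf1b was higher (log2 change 1.09 against 0.97). The gene gtf2b encodes TFIIB, the factor that bridges the TATA-binding protein and the polymerase. Its values were 24.1, 28.9, 30.5 and 26.0 TPM in control and 55.6, 59.9, 52.2 and 46.5 TPM in cold, with every cold library above every control library (log2 change 0.94 ± 0.10, limma adjusted p = 0.000180; 1.96-fold). The gene gtf2f1, of the large subunit of TFIIF, which travels with the polymerase, also rose (37.6, 37.1, 34.3 and 36.1 TPM in control and 42.0, 44.9, 45.6 and 44.2 TPM in cold; log2 change 0.28 ± 0.05, limma adjusted p = 0.00401). Its partner gtf2f2 measured 32.1 and 34.4 TPM and was not called (limma adjusted p = 0.265).

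In contrast, the genes of the larger subunits of TFIIA and TFIIE fell. TFIIA steadies the TATA-binding protein on DNA, and its precursor gene gtf2a1 measured 32.0, 31.8, 29.0 and 32.0 TPM in control and 23.9, 23.5, 23.1 and 22.98 TPM in cold (log2 change -0.40 ± 0.06, limma adjusted p = 0.000781). The cold libraries of gtf2a1 were close to each other, all below the controls. TFIIE brings TFIIH to the promoter, and gtf2e1 fell, at 11.5 ± 1.002 in control against 7.80 ± 1.33 TPM in cold (log2 change -0.51 ± 0.12, limma adjusted p = 0.00897). The smaller subunit genes of both factors were not called, at 98.2 and 108 TPM for gtf2a2 and 63.2 and 63.5 TPM for gtf2e2 (limma adjusted p = 0.290 and 0.921). A pair of core genes of TFIIH, which opens promoter DNA, moved apart: gtf2h4 fell (13.1 ± 0.897 in control against 9.80 ± 0.369 TPM in cold; log2 change -0.38 ± 0.07, limma adjusted p = 0.00372) and gtf2h3 rose (31.0 ± 1.68 in control against 36.5 ± 3.37 TPM in cold; log2 change 0.22 ± 0.08, limma adjusted p = 0.0457). The call of gtf2h3 was lost in 6 of the 8 fits that left out 1 library (limma adjusted p up to 0.115), whereas gtf2h4 kept its call in all 8. Levels of gtf2h1 and gtf2h5 were 14.0 and 12.4 TPM and 97.3 and 100.2 TPM, neither called (limma adjusted p = 0.217 and 0.777).

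The kinase part of TFIIH and the TATA-binding protein lie outside the name pattern and were listed as related genes. The TATA-binding protein gene tbp rose (19.0, 19.6, 20.2 and 16.2 TPM in control and 23.2, 23.8, 27.9 and 23.9 TPM in cold; log2 change 0.38 ± 0.09, limma adjusted p = 0.00940). Of the kinase genes, the cyclin gene ccnh (19.5 against 29.6 TPM) and the assembly factor gene mnat1 (13.05 against 17.4 TPM) rose, while cdk7 fell (33.0 against 24.0 TPM; limma adjusted p = 0.00107, 0.00836 and 0.0334). The fall of cdk7 was not called after median-of-ratios scaling (limma adjusted p = 0.0682) and was called in 3 of the 8 fits without 1 library. The helicase genes ercc2 (12.03 and 12.2 TPM) and ercc3 (21.9 and 22.2 TPM) were not called (limma adjusted p = 0.910 and 0.857).

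**Figure D2:**
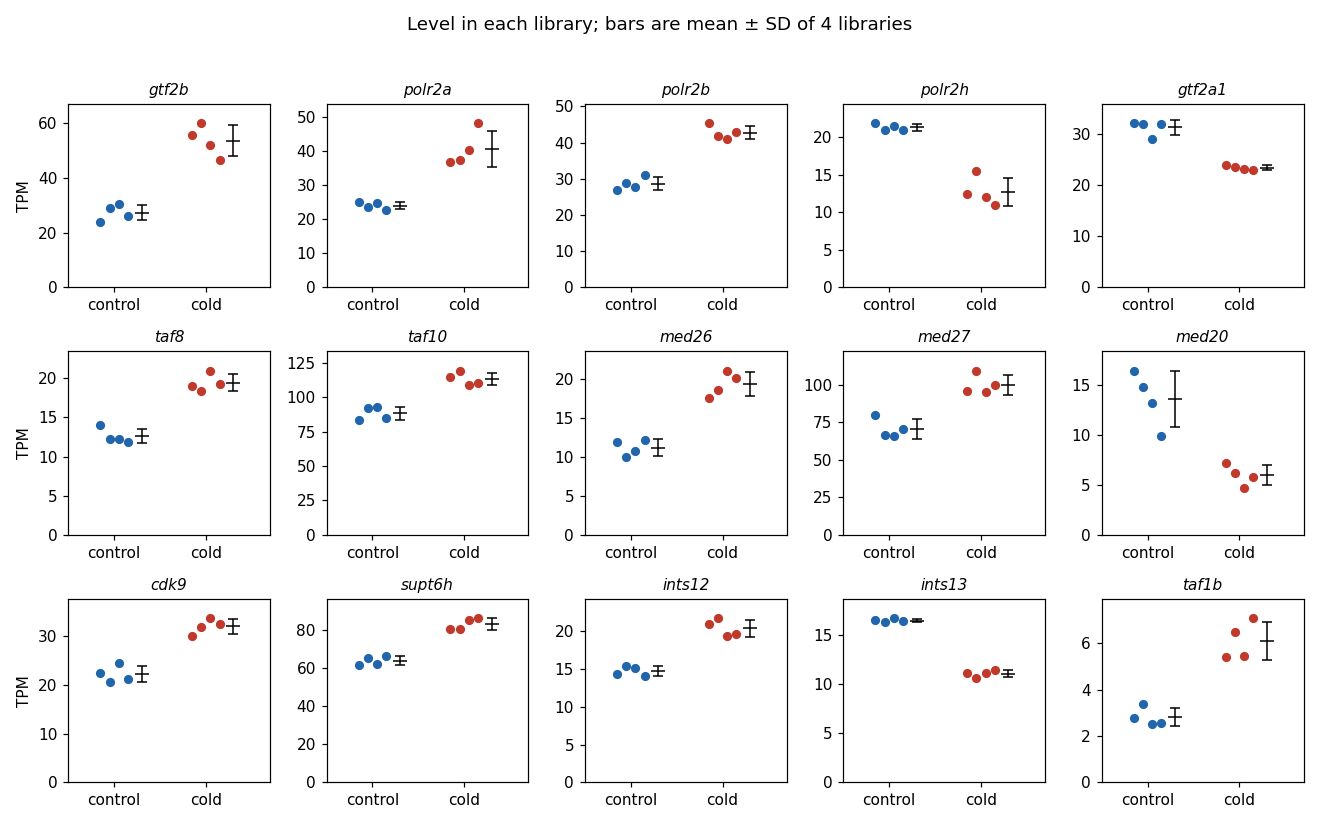
TPM in each library for 15 members (points; blue control, red cold) with the mean ± SD of the 4 libraries beside them, each axis starting at 0. The groups do not overlap in any panel, with gtf2b between 46.5 and 59.9 TPM in cold against 24.1 to 30.5 TPM in control, and med20 between 4.74 and 7.23 TPM in cold against 9.95 to 16.4 TPM in control.

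Among the TAFs of TFIID and of the coactivator SAGA, 2 of 14 (14.3%) rose and none was called lower. On the TPM scale the share of rises was near the 13.0% of all tested genes. After median-of-ratios scaling 6 (42.9%) were higher, against 18.5% of all tested genes, and none was lower. The gene taf8 measured 14.0, 12.3, 12.3 and 11.9 TPM in control and 19.0, 18.4, 20.9 and 19.3 TPM in cold (log2 change 0.58 ± 0.07, limma adjusted p = 0.000468), and taf10 measured 83.5, 91.9, 92.7 and 85.1 TPM in control and 114, 119, 109 and 110.5 TPM in cold (log2 change 0.36 ± 0.05, limma adjusted p = 0.00130). As background, TAF8 and TAF10 pair through histone-like folds and join TFIID together with TAF2. Both genes were higher in every cold library than in any control library, while taf2 measured 10.8 and 10.2 TPM (limma adjusted p = 0.533). The gene taf3, of another partner of TAF10, measured 29.9 to 33.2 TPM in control and 32.9 to 42.3 TPM in cold and passed only after median-of-ratios scaling (limma adjusted p = 0.0953 and 0.0164).

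The other TAF genes were not called on the TPM scale. The largest TFIID subunit gene, taf1, measured 20.8, 21.3, 21.3 and 20.1 TPM in control and 17.0, 17.0, 19.5 and 20.1 TPM in cold. Its lowest control and highest cold library nearly met without overlap, and its log2 change of -0.18 ± 0.07 did not pass (limma adjusted p = 0.0837), although it did when cold 4 was left out (limma adjusted p = 0.0473). The most abundant TAF transcript was taf13 (176 to 199.5 TPM in control and 191 to 203 TPM in cold; limma adjusted p = 0.157), whose product pairs with that of taf11 (35.8 and 39.4 TPM; limma adjusted p = 0.180). Both taf11 and taf13 passed as higher after median-of-ratios scaling, as did taf12 (81.5 to 99.3 TPM in control and 100.2 to 110.4 TPM in cold; limma adjusted p = 0.0687 on the TPM scale and 0.0185 after scaling). Scaffold genes showed smaller differences, with log2 changes of 0.03 ± 0.10 for taf4, 0.07 ± 0.10 for taf5 and 0.06 ± 0.09 for taf6. The SAGA counterparts taf5l (6.58 and 5.43 TPM) and taf6l (17.7 and 18.9 TPM) and the gene taf7l (95.01 and 99.4 TPM) were not called (limma adjusted p from 0.113 to 0.525).

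The name pattern also took in TAF genes of the polymerase I factor SL1, which loads polymerase I on ribosomal RNA genes. Of these, taf1b rose, at 2.82 ± 0.402 in control against 6.11 ± 0.823 TPM in cold (log2 change 0.89 ± 0.12, limma adjusted p = 0.000698; 2.16-fold). The values of taf1b were 2.78, 3.40, 2.53 and 2.58 TPM in control and 5.396, 6.50, 5.45 and 7.07 TPM in cold. The gene taf1c rose, at 3.03 ± 0.514 in control against 4.70 ± 0.374 TPM in cold (log2 change 0.51 ± 0.12, limma adjusted p = 0.0101), and taf1a measured 1.59 to 2.50 TPM in control and 1.56 to 1.81 TPM in cold (limma adjusted p = 0.187). These are low levels, with taf1a the lowest of the 108 members. Just outside the threshold were gtf2a1l, between 0 and 0.623 TPM, and gtf3a, between 0 and 0.395 TPM, which were not tested. Among related polymerase I genes, ubtf, of the factor that bends ribosomal gene DNA, rose (114 ± 14.3 in control against 190.1 ± 8.87 TPM in cold; log2 change 0.74 ± 0.09, limma adjusted p = 0.000323), polr1e rose (12.7 against 17.5 TPM; limma adjusted p = 0.00300), and the catalytic subunit gene polr1a fell (5.92 against 4.03 TPM; limma adjusted p = 0.00397). Levels of polr1b, polr1c, polr1d and rrn3 were not called (limma adjusted p from 0.216 to 0.737).

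Of 10 polymerase III subunit genes, none was called higher and 2 (20%) fell, against 13.0% and 23.6% of all tested genes, so the share of falls was near the background. Polymerase III makes transfer RNAs and other short RNAs. A trimer of its subunits, encoded by polr3c, polr3f and polr3g or polr3gl, opens the promoter. The gene polr3c measured 10.5, 9.47, 10.7 and 9.34 TPM in control and 6.91, 6.33, 8.43 and 6.08 TPM in cold (log2 change -0.48 ± 0.11, limma adjusted p = 0.00772). Each cold value of polr3c was below each control value. For polr3gl the values were 54.0, 51.7, 61.5 and 52.5 TPM in control and 45.8, 43.3, 39.0 and 41.1 TPM in cold (log2 change -0.37 ± 0.07, limma adjusted p = 0.00491), again without overlap. The third member of the trimer, polr3f, measured 17.1 to 20.9 TPM in control and 12.8 to 17.4 TPM in cold and did not pass (limma adjusted p = 0.0654). The alternative subunit gene polr3g was lower in level and more variable than polr3gl (2.84 to 4.52 TPM in control and 1.698 to 5.28 TPM in cold; limma adjusted p = 0.924). The catalytic subunit genes polr3a (9.36 and 8.99 TPM) and polr3b (11.5 and 10.8 TPM) differed by log2 changes of -0.05 ± 0.08 and -0.08 ± 0.08, and polr3d, polr3e and polr3k were not called either (limma adjusted p from 0.134 to 0.319).

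The 6 tested genes of TFIIIC, the factor that recognises transfer RNA genes, had no call on the TPM scale. Their log2 changes ran from -0.12 for gtf3c5 to 0.21 for gtf3c2, and gtf3c2 (6.13 to 7.01 TPM in control and 6.92 to 8.30 TPM in cold) passed as higher after median-of-ratios scaling (limma adjusted p = 0.0211). The most abundant was gtf3c6 (25.8 to 28.3 TPM in control and 22.0 to 30.6 TPM in cold). Of 8 related genes of polymerase III initiation and control, 4 (50%) fell, against 23.6% of all tested genes, and none was called higher. After median-of-ratios scaling 4 (50%) were lower and 1 (12.5%) higher, against 16.8% and 18.5%. The gene maf1, of the polymerase III repressor, measured 109, 91.7, 94.96 and 84.0 TPM in control and 44.2, 50.5, 40.9 and 55.7 TPM in cold (log2 change -0.98 ± 0.11, limma adjusted p = 0.000263). The gene brf2, of an initiation factor for small nuclear RNA promoters, fell, at 5.35 ± 0.965 in control against 2.22 ± 0.393 TPM in cold (log2 change -0.97 ± 0.14, limma adjusted p = 0.00104), and the snapc1 (14.0 against 10.3 TPM) and snapc4 (14.1 against 10.1 TPM) genes, whose products bind those same promoters for polymerases II and III, also fell (limma adjusted p = 0.00214 and 0.00670). The TFIIIB genes brf1 (15.5 and 16.3 TPM; limma adjusted p = 0.670) and bdp1 (limma adjusted p = 0.921) were not called. The result for bdp1 rests on control 4, without which it was called higher (log2 change 0.46, limma adjusted p = 0.00746).

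Mediator held the most calls, in both directions. Of 27 Mediator genes, 11 (40.7%) rose and 7 (25.9%) fell, against 13.0% and 23.6% of all tested genes. After median-of-ratios scaling 12 (44.4%) were higher and 4 (14.8%) lower, against 18.5% and 16.8%. The share of falls was thus near the background on both scales. Mediator is built of a head and a middle module that contact the polymerase, a tail that binds activators, and a detachable kinase module. When the genes were grouped by module, after their values had been seen, 2 of 7 head genes rose and 4 fell, 4 of 10 middle genes rose and 2 fell, and 5 of 8 tail genes rose and 1 fell. After median-of-ratios scaling 2 head genes were higher and 3 lower, 4 middle genes higher and 0 lower, and 5 tail genes higher and 1 lower. Whether the modules differ was not tested.

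In the head, med20 fell more than any other member. It measured 16.4, 14.8, 13.2 and 9.95 TPM in control and 7.23, 6.23, 4.74 and 5.85 TPM in cold (log2 change -1.05 ± 0.16, limma adjusted p = 0.00128), so that the highest cold value was below the lowest control value. Falls were also called for med11 (22.5, 20.6, 20.6 and 16.3 TPM in control and 11.5, 14.5, 15.7 and 14.6 TPM in cold; log2 change -0.48 ± 0.12, limma adjusted p = 0.0131), med8 (38.8 ± 3.02 in control against 30.5 ± 1.33 TPM in cold; log2 change -0.34 ± 0.07, limma adjusted p = 0.00501) and med22 (43.4 ± 4.01 in control against 34.6 ± 2.71 TPM in cold; log2 change -0.32 ± 0.08, limma adjusted p = 0.0152). The same module held rises. The gene med18, whose product pairs with that of med20, rose with 13.1, 10.6, 11.1 and 10.7 TPM in control and 14.7, 16.5, 18.2 and 13.8 TPM in cold (log2 change 0.44 ± 0.10, limma adjusted p = 0.0105), and med17, of the central head subunit, rose, at 16.9 ± 1.32 in control against 20.1 ± 1.08 TPM in cold (log2 change 0.24 ± 0.07, limma adjusted p = 0.0322), although 1 control library (18.8 TPM) lay just above the lowest cold library (18.7 TPM). Levels of med6 were 23.6 and 20.1 TPM (limma adjusted p = 0.169).

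In the middle module, med26 rose most. Its product passes the polymerase on to elongation factors, and its values were 11.9, 9.94, 10.7 and 12.2 TPM in control and 17.5, 18.5, 21.0 and 20.1 TPM in cold (log2 change 0.74 ± 0.09, limma adjusted p = 0.000355; 1.73-fold). Every cold library was above every control library. The scaffold gene med14 (15.3 ± 0.735 in control against 19.3 ± 1.600 TPM in cold; log2 change 0.31 ± 0.08, limma adjusted p = 0.0116), med4 (28.9 ± 1.496 in control against 34.8 ± 1.05 TPM in cold; limma adjusted p = 0.00741) and med1, a docking subunit for nuclear receptors (17.0, 17.2, 16.1 and 15.9 TPM in control and 17.7, 20.4, 19.6 and 23.6 TPM in cold; log2 change 0.28 ± 0.09, limma adjusted p = 0.0350), rose as well. The call of med1 was lost in 7 of the 8 fits that left out 1 library (limma adjusted p up to 0.0820) and held only without cold 1 (0.0159). Falls of med7 (34.8 ± 1.18 in control against 30.5 ± 1.29 TPM in cold; limma adjusted p = 0.0277) and med9 (32.3 ± 1.21 in control against 26.6 ± 3.56 TPM in cold; limma adjusted p = 0.0412) passed on the TPM scale but not after median-of-ratios scaling, and med10, med19, med21 and med31 were not called (limma adjusted p from 0.0755 to 0.992).

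In the tail, med27 was the most abundant Mediator transcript and rose, with 79.8, 66.2, 65.5 and 70.6 TPM in control and 95.9, 109, 94.8 and 99.6 TPM in cold (log2 change 0.50 ± 0.08, limma adjusted p = 0.00122). The genes med29 (50.5 ± 2.76 in control against 64.1 ± 2.45 TPM in cold; log2 change 0.34 ± 0.06, limma adjusted p = 0.00187), med23, a contact of activators downstream of growth signals (13.7 ± 0.942 in control against 17.6 ± 1.21 TPM in cold; log2 change 0.35 ± 0.08, limma adjusted p = 0.00763), med28 (27.9 against 35.4 TPM; limma adjusted p = 0.0327) and med16 (12.6 against 15.4 TPM; limma adjusted p = 0.0389) also rose. One tail gene, med30, fell (13.9 ± 1.65 in control against 10.2 ± 1.11 TPM in cold; log2 change -0.41 ± 0.11, limma adjusted p = 0.0174). Its call was lost without control 3 (limma adjusted p = 0.0506) and without control 4 and cold 2 together (0.0855). Neither med24 (18.2 and 19.9 TPM) nor med25 (28.3 and 28.1 TPM) was called (limma adjusted p = 0.354 and 0.965). Further Mediator genes are listed in the files by a LOC identifier and named in the reference gene table. Of those, med15, a tail subunit that binds many activators, rose (26.7, 16.6, 27.4 and 22.5 TPM in control and 34.7, 39.1, 34.2 and 42.8 TPM in cold; log2 change 0.69 ± 0.15, limma adjusted p = 0.00735), and med1l (5.26 and 3.85 TPM) was not called (limma adjusted p = 0.0908).

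Neither member of the kinase module was called on the TPM scale. Levels of med12 were 26.3, 25.4, 26.9 and 27.3 TPM in control and 26.5, 28.1, 27.2 and 29.2 TPM in cold (log2 change 0.07 ± 0.06, limma adjusted p = 0.377), with a call only after median-of-ratios scaling (limma adjusted p = 0.0427), and those of med13l were 8.68 and 9.30 TPM (limma adjusted p = 0.470). The gene med13a, listed by identifier, rose (13.1, 14.4, 14.2 and 14.5 TPM in control and 15.6, 16.9, 17.1 and 18.8 TPM in cold; log2 change 0.26 ± 0.07, limma adjusted p = 0.0225), but its call was lost without control 1, cold 3 or cold 4 (limma adjusted p up to 0.0600). Of the kinase genes themselves, cdk19 fell (11.97 ± 0.900 in control against 8.86 ± 1.45 TPM in cold; limma adjusted p = 0.0218), with a call in 4 of the 8 fits that left out 1 library, and cdk8 (21.7 and 19.1 TPM) and the cyclin gene ccnc (24.0 and 26.7 TPM) were not called (limma adjusted p = 0.0784 and 0.114). The values of ccnc did not overlap between groups, and it passed as higher after median-of-ratios scaling (limma adjusted p = 0.0271).

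**Figure D3:**
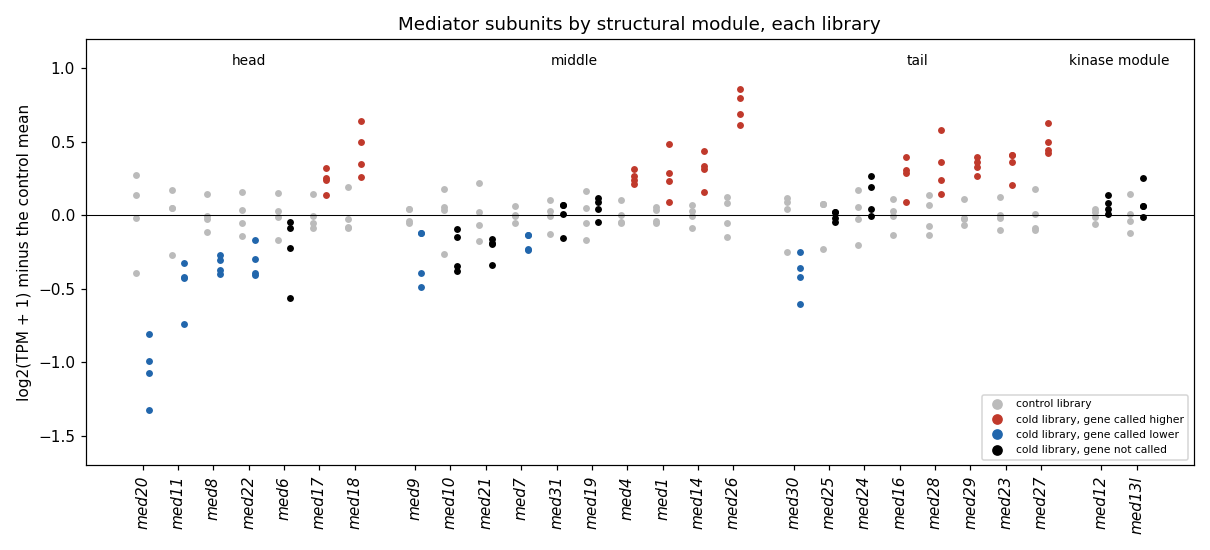
Each library's log2(TPM + 1) minus the control mean for the 27 Mediator members, ordered by module and by change (light grey control, coloured or black cold). Head genes span the widest range, from med20 (log2 change -1.05) to med18 (0.44), and all 4 cold libraries of med26 lie above every control library.

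Among genes of the switch from pausing to elongation, cdk9 and ccnt1 of the kinase P-TEFb rose and the gene of its inhibitor fell. The kinase gene cdk9 rose, with 22.5, 20.6, 24.5 and 21.3 TPM in control and 29.9, 31.9, 33.6 and 32.5 TPM in cold (log2 change 0.51 ± 0.07, limma adjusted p = 0.000739; 1.44-fold). Its cyclin partner gene ccnt1, listed by identifier in the files and named by the reference table, measured 18.6, 17.8, 17.3 and 15.6 TPM in control and 30.4, 34.9, 37.6 and 39.7 TPM in cold (log2 change 0.997 ± 0.09, limma adjusted p = 0.000111; 2.06-fold). Both were higher in each cold library than in any control library. The other cyclin T copies did not pass, with 53.8 to 60.5 TPM in control and 55.1 to 65.9 TPM in cold for ccnt2a (limma adjusted p = 0.146) and 25.9 to 31.5 TPM in control and 24.3 to 29.4 TPM in cold for ccnt2b (limma adjusted p = 0.769). On both sides of the comparison ccnt2a was the most abundant cyclin T transcript. It passed as higher after median-of-ratios scaling (limma adjusted p = 0.0244) and when cold 1 was left out (0.0276).

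The related gene hexim1 encodes the inhibitor that holds P-TEFb inactive on a small nuclear RNA. It fell, with 29.1, 28.7, 32.0 and 29.4 TPM in control and 19.8, 16.9, 20.02 and 21.9 TPM in cold (log2 change -0.58 ± 0.08, limma adjusted p = 0.000873). The gene larp7, of a protein that stabilises that RNA, fell as well (18.6 ± 2.83 in control against 12.4 ± 1.28 TPM in cold; log2 change -0.55 ± 0.11, limma adjusted p = 0.00596). The bromodomain protein genes brd2b and brd3 rose: brd2b measured 40.7 to 45.3 TPM in control and 57.8 to 61.1 TPM in cold (log2 change 0.45 ± 0.05, limma adjusted p = 0.000283) and brd3 41.7 to 46.5 TPM in control and 52.2 to 62.4 TPM in cold (log2 change 0.37 ± 0.07, limma adjusted p = 0.00350). The brd2a copy measured 78.7 and 73.3 TPM and was not called (limma adjusted p = 0.280). The calls of hexim1, larp7, brd2b and brd3 held on both scales and without any single library.

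Among elongation factors that travel with the polymerase, supt6h, of a histone chaperone, rose with 61.9, 65.4, 62.1 and 66.6 TPM in control and 80.8, 80.6, 85.4 and 86.3 TPM in cold (log2 change 0.37 ± 0.05, limma adjusted p = 0.000639). The DSIF gene supt4h1 rose slightly (118, 113, 105 and 107 TPM in control and 134, 132, 124 and 122 TPM in cold; log2 change 0.21 ± 0.06, limma adjusted p = 0.0177), a call that was lost without control 3 (limma adjusted p = 0.0522). Its partner supt5h measured 46.9, 44.1, 49.9 and 45.2 TPM in control and 43.8, 45.2, 45.4 and 48.3 TPM in cold and did not pass (log2 change -0.03 ± 0.06, of opposite sign after median-of-ratios scaling; limma adjusted p = 0.762). FACT, which takes nucleosomes apart in front of the polymerase, showed no call for supt16h (34.6 to 40.0 TPM in control and 32.8 to 39.3 TPM in cold; limma adjusted p = 0.477) or for the related partner gene ssrp1 (57.2 to 62.4 TPM in control and 57.5 to 62.8 TPM in cold; limma adjusted p = 0.620). The genes ell and ell2, whose products raise the elongation rate, measured 9.24 and 9.38 TPM and 17.2 and 20.3 TPM (limma adjusted p = 0.871 and 0.0712), and ell2 passed as higher after median-of-ratios scaling (0.0165).

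Other elongation genes of the related list followed no single direction. In the PAF1 complex, which binds elongating polymerase, ctr9 (30.2 ± 2.11 in control against 42.9 ± 1.15 TPM in cold; log2 change 0.49 ± 0.06, limma adjusted p = 0.000453), paf1 (38.2 against 46.0 TPM; limma adjusted p = 0.00356) and leo1 (42.8 against 49.1 TPM; limma adjusted p = 0.0326) rose, and cdc73 fell (50.1 against 41.5 TPM; limma adjusted p = 0.0141), the last not after median-of-ratios scaling (0.0832). The call of leo1 held in 3 of the 8 fits that left out 1 library. Neither rtf1 (33.4 and 37.8 TPM) nor wdr61 (40.7 and 41.7 TPM) was called (limma adjusted p = 0.0690 and 0.744). After median-of-ratios scaling rtf1 passed as higher (limma adjusted p = 0.0159). The pausing factor gene nelfcd rose (24.3 against 31.9 TPM; limma adjusted p = 0.00876), while nelfa, nelfb and nelfe were not called (limma adjusted p from 0.140 to 0.475). Of these, nelfe passed as higher after median-of-ratios scaling (limma adjusted p = 0.0315). Of 10 genes listed under the super elongation complex, a list that also took in ice1 and ice2, only mllt1 (10%) was called. Of all tested genes 36.7% were called. The gene mllt1 was lower in cold (12.96 against 9.45 TPM; limma adjusted p = 0.00299). The gene ice1 passed as higher after median-of-ratios scaling (limma adjusted p = 0.0156). The cleavage-stimulating factor gene tcea2 fell (7.63 against 5.37 TPM; limma adjusted p = 0.00299). Levels of tcea1 were 62.6 and 69.2 TPM, and it passed as higher only after median-of-ratios scaling (limma adjusted p = 0.0533 and 0.00604).

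Integrator genes also split. Of 13 members 3 (23.1%) rose and 4 (30.8%) fell, against 13.0% and 23.6% of all tested genes. After median-of-ratios scaling 4 (30.8%) were higher and 3 (23.1%) lower, against 18.5% and 16.8%. All 3 measured genes of the arm that INTS10, INTS13 and INTS14 are known to form fell: ints13 measured 16.5, 16.3, 16.7 and 16.4 TPM in control and 11.1, 10.6, 11.1 and 11.5 TPM in cold (log2 change -0.53 ± 0.06, limma adjusted p = 0.000254), ints10 18.4, 17.9, 19.7 and 18.4 TPM in control and 12.4, 13.1, 10.9 and 13.00 TPM in cold (log2 change -0.56 ± 0.07, limma adjusted p = 0.000628), and ints14 25.1, 23.6, 22.1 and 21.3 TPM in control and 19.2, 18.6, 18.3 and 21.3 TPM in cold (log2 change -0.24 ± 0.08, limma adjusted p = 0.0343). The 4 control libraries of ints13 were close to each other, and all 4 cold libraries were lower. The lowest control and highest cold library of ints14 nearly met. Its call held in 2 of the 8 fits that left out 1 library and did not pass after median-of-ratios scaling. The gene ints7 fell as well, at 8.73 ± 0.870 in control against 6.50 ± 0.435 TPM in cold (log2 change -0.37 ± 0.09, limma adjusted p = 0.0128).

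The largest Integrator change was found outside the name pattern. The gene ints6, listed by identifier, encodes a subunit that attaches a protein phosphatase to the complex. It measured 10.1, 9.57, 9.52 and 10.1 TPM in control and 3.29, 3.58, 2.85 and 2.57 TPM in cold (log2 change -1.42 ± 0.10, limma adjusted p = 3.13e-05), which makes the cold mean 0.313 times the control mean. Its paralog ints6l measured 6.79 and 5.75 TPM and was not called (limma adjusted p = 0.275). The related gene nabp1a, of a single-strand DNA binding protein that joins INTS3 in a DNA repair complex, fell to a similar degree (24.5, 24.4, 23.1 and 24.2 TPM in control and 8.31, 7.52, 9.10 and 9.83 TPM in cold; log2 change -1.38 ± 0.08, limma adjusted p = 1.60e-05), while ints3 measured 17.8 and 16.7 TPM (limma adjusted p = 0.292). Both ints6 and nabp1a held their calls on both scales and in each fit without 1 library.

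The rises within Integrator were those of ints12, a chromatin-reader subunit (14.4, 15.4, 15.2 and 14.1 TPM in control and 21.0, 21.7, 19.4 and 19.6 TPM in cold; log2 change 0.44 ± 0.07, limma adjusted p = 0.00103), ints4, the scaffold of the cleavage module (8.97, 8.79, 8.87 and 8.47 TPM in control and 10.4, 11.7, 12.6 and 13.2 TPM in cold; log2 change 0.40 ± 0.08, limma adjusted p = 0.00581), and ints8, which binds the phosphatase (8.67 ± 0.975 in control against 10.9 ± 0.525 TPM in cold; log2 change 0.30 ± 0.09, limma adjusted p = 0.0284). The call of ints8 was lost without control 2, control 4, cold 2, cold 3 or cold 4 (limma adjusted p up to 0.0690). The endonuclease gene ints11 measured 16.3, 16.2, 14.4 and 11.9 TPM in control and 14.1, 13.7, 13.3 and 11.2 TPM in cold, with overlapping groups and no call (log2 change -0.16 ± 0.11, limma adjusted p = 0.313), and its partner ints9 measured 8.80 and 7.87 TPM (limma adjusted p = 0.405). The backbone genes ints1 and ints2 were 13.2 and 14.9 TPM and 11.3 and 11.9 TPM. The values of ints1 did not overlap between groups, and it passed only after median-of-ratios scaling (limma adjusted p = 0.104 and 0.0149). The gene ints5 measured 3.83 and 2.82 TPM (limma adjusted p = 0.0604).

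**Figure D4:**
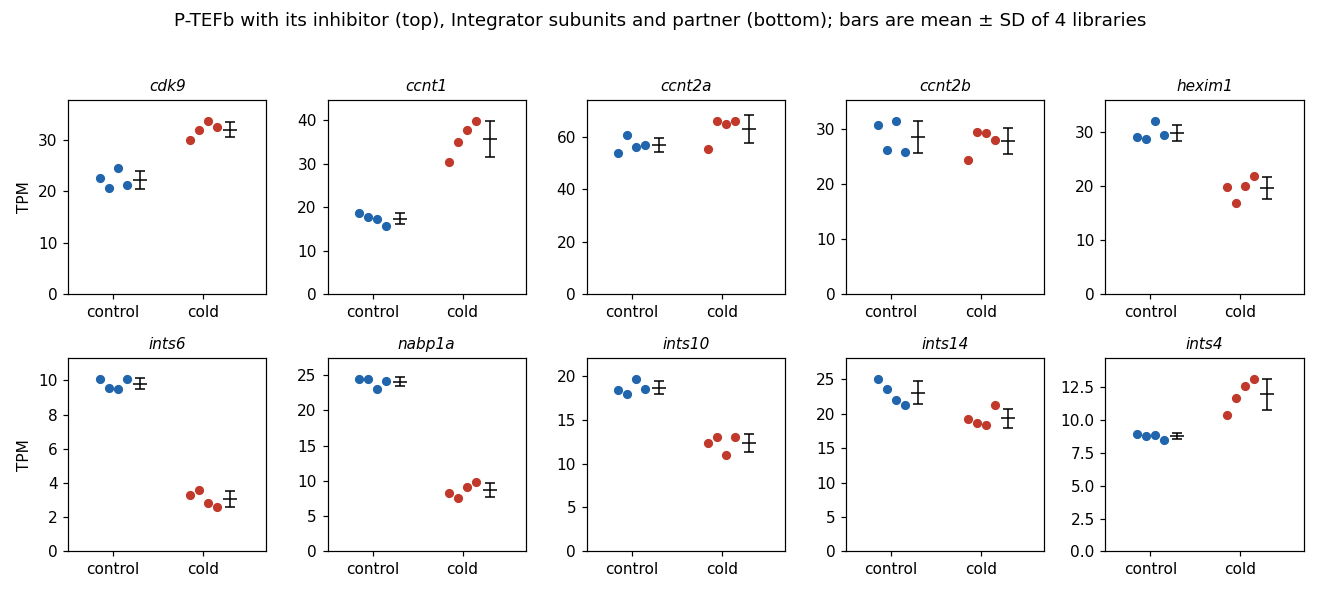
TPM in each library (points; blue control, red cold, axes from 0) with mean ± SD of 4 libraries for P-TEFb genes and the inhibitor gene hexim1 (top) and for Integrator genes and the partner gene nabp1a (bottom). Cold libraries lie above all control libraries for cdk9, ccnt1 and ints4 and below them for hexim1, ints6, nabp1a and ints10, and groups overlap for ccnt2a and ccnt2b.

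SAGA, a coactivator that shares TAFs with TFIID and modifies histones, was represented by supt3h, supt7l and supt20h. The gene supt20h rose (12.04, 10.2, 11.2 and 10.8 TPM in control and 13.2, 16.4, 15.7 and 16.1 TPM in cold; log2 change 0.44 ± 0.09, limma adjusted p = 0.00464), and supt3h (7.17 and 5.49 TPM; limma adjusted p = 0.0541) and supt7l (7.78 and 8.86 TPM; limma adjusted p = 0.225) were not called. Of 13 related coactivator genes tested, those of SAGA among them, 3 (23.1%) rose, 1 (7.69%) fell and 9 were not called. All tested genes had 13.0% higher and 23.6% lower. After median-of-ratios scaling 5 (38.5%) were higher and 1 (7.69%) lower, against 18.5% and 16.8%. Among related SAGA genes, atxn7, of the deubiquitinase anchor, rose 1.97-fold (5.43, 5.98, 4.62 and 5.11 TPM in control and 10.2, 10.5, 9.94 and 11.04 TPM in cold; log2 change 0.87 ± 0.09, limma adjusted p = 0.000180). The acetyltransferase gene kat2b (25.4 ± 1.196 in control against 40.1 ± 2.83 TPM in cold; log2 change 0.64 ± 0.07, limma adjusted p = 0.000193) and tada2b (8.16 against 10.9 TPM; limma adjusted p = 0.00877) rose too, and trrap, of the activator-binding subunit, fell (6.11 against 4.42 TPM; limma adjusted p = 0.0122). The other acetyltransferase gene, kat2a, measured 4.28 and 4.72 TPM (limma adjusted p = 0.390).

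A few subunits of the same complexes are listed by identifier only. Of 12 such genes tested, 4 rose (ccnt1, med15, med13a and taf4a) and 2 fell (ints6 and taf15). These shares of 33.3% and 16.7% compare with 13.0% and 23.6% of all tested genes. The gene taf15 encodes an RNA-binding protein of the FET family that associates with TFIID. It fell, at 294 ± 10.7 in control against 153 ± 13.02 TPM in cold (log2 change -0.95 ± 0.07, limma adjusted p = 3.00e-05), and taf4a rose, at 7.69 ± 0.645 in control against 9.95 ± 0.800 TPM in cold (log2 change 0.33 ± 0.09, limma adjusted p = 0.0174). The rise of taf4a was not called when control 4 and cold 2 were both left out (limma adjusted p = 0.0706). Both taf9 (22.3 and 23.1 TPM) and gtf2h2 (41.4 and 40.7 TPM) were not called (limma adjusted p = 0.560 and 0.845). The member gtf2ird1, which shares only its name with the general factors, measured 14.0 to 15.6 TPM in control and 13.01 to 14.6 TPM in cold (limma adjusted p = 0.356).

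In the whole list of related genes, 21 of 94 tested genes (22.3%) rose and 17 (18.1%) fell, against 13.0% and 23.6% of all tested genes, with a median log2 change of 0.04. After median-of-ratios scaling 30 (31.9%) were higher and 15 (16.0%) lower, against 18.5% and 16.8%. Enzymes and readers of the polymerase tail were among both. Of 15 related phosphatase and reader genes of the tail, 4 (26.7%) rose and 2 (13.3%) fell. Of 4 tail kinase genes, 1 (25%) fell. The called shares of 40% and 25% compare with 36.7% of all tested genes. After median-of-ratios scaling they were 46.7% and 25%, against 35.3%. The tail-binding gene rprd1a fell, at 28.1 ± 0.735 in control against 14.0 ± 1.696 TPM in cold (log2 change -0.96 ± 0.09, limma adjusted p = 9.30e-05), as did the tail kinase gene cdk12 (18.2 ± 1.28 in control against 12.4 ± 0.367 TPM in cold; log2 change -0.52 ± 0.07, limma adjusted p = 0.000650) and the tail phosphatase gene ssu72 (102 against 77.3 TPM; limma adjusted p = 0.00431). The phosphatase genes ctdsp2 (61.5 ± 5.56 in control against 97.3 ± 8.94 TPM in cold; log2 change 0.65 ± 0.09, limma adjusted p = 0.000569) and ctdspl (31.5 against 39.1 TPM; limma adjusted p = 0.0274) rose, together with rprd2 (8.87 against 11.95 TPM; limma adjusted p = 0.0182) and rprd2a (11.8 against 14.7 TPM; limma adjusted p = 0.0331). The calls of ctdspl and rprd2a held in 3 and 2 of the 8 fits that left out 1 library. The polymerase assembly genes rpap3 (18.6 against 24.4 TPM) and gpn3 (16.8 against 21.1 TPM) also rose (limma adjusted p = 0.00367 and 0.0157).

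Ratios between transcripts within a library do not depend on how libraries are scaled. They are given here as descriptions, for pairs chosen after the values were seen. The ratio of polr2h to polr2a was 0.870 to 0.916 in control and 0.228 to 0.410 in cold, and that of med20 to med18 was 0.933 to 1.40 in control and 0.260 to 0.492 in cold. For TFIIA the ratio of gtf2a1 to gtf2a2 was 0.281 to 0.375 in control and 0.192 to 0.234 in cold, and for TFIIE that of gtf2e1 to gtf2e2 was 0.167 to 0.206 in control and 0.0974 to 0.151 in cold. In all 4 pairs the cold values lay below the control values without overlap. The ratio of ccnt1 to hexim1 went the other way, at 0.529 to 0.637 in control and 1.53 to 2.07 in cold, also without overlap. For polr2h with polr2a, med20 with med18 and ccnt1 with hexim1, both genes had moved in opposite directions without overlap. Their separate ratios follow from that and add no further evidence. In polymerase III, the ratio of polr3c to polr3k was 0.194 to 0.213 in control and 0.142 to 0.172 in cold. Ratios overlapped between groups for TFIIF (gtf2f1 to gtf2f2, 1.09 to 1.18 in control and 1.15 to 1.35 in cold), DSIF (supt4h1 to supt5h, 2.11 to 2.56 in control and 2.53 to 3.07 in cold) and FACT (supt16h to ssrp1, 0.596 to 0.675 in control and 0.523 to 0.632 in cold).

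**Figure D5:**
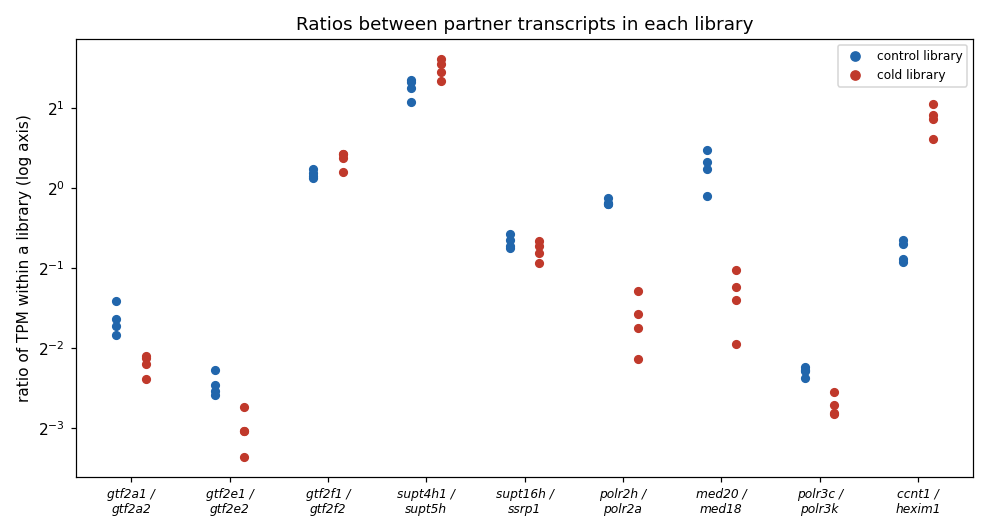
Ratio of the TPM of partner transcripts within each library on a log axis (blue control, red cold, 4 libraries each). The ratio of polr2h to polr2a lies between 0.870 and 0.916 in control and between 0.228 and 0.410 in cold, and the ratios within TFIIF, DSIF and FACT overlap between the groups.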

How the data were processed

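Polyadenylated midbrain RNA was measured in 4 control and 4 cold libraries, grouped and numbered by the sample titles. Per the labels' protocols, RNA was taken up in TRIzol, captured on poly(dT) beads and made into TruSeq libraries, and the submitters' processing notes list HISAT2. The sources used here do not give the counting program, genome build, annotation or strand setting. The authors deposited values taken here as TPM, 1 list of 29533 genes per library. The unit was read from the values, which sum to 1000000 in each. TPM keeps no read depth, so the depth is unknown. Reads of gene copies (such as taf4 and taf4a, or ccnt2a and ccnt2b) or of overlapping genes may have been divided. How alike the sequences of such copies are was not examined.

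A model in limma 3.58.1 under R 4.3.3, with trend, used log2(TPM + 1) without covariates, over 18863 genes with a group mean of at least 1 TPM. Tests were two-sided with Benjamini-Hochberg adjustment. The fit was tested on simulated data in which 200 genes were changed, far fewer than the genes called here. That test does not bear on the scaling of the libraries. Genes listed by a LOC identifier took their symbol from the reference gene table of assembly O_niloticus_UMD_NMBU: 13 carried a symbol of the pattern and 12 were tested. That table holds no product descriptions, so symbols stood in for them. The related list had 96 symbols, 6 of them unmatched. Related genes and markers were matched with a trailing copy letter or number, which also took in taf1a for taf1, a different gene.

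Members and lists were chosen with earlier results of these data known. A rule named, in each role group, up to 3 called members of largest change per direction and the most abundant member. It also named a fixed set of core genes and the related genes of lowest p. Other genes were named after their values were seen, among them ints6, med15, bdp1 and nelfb, which are printed with the value of every library. A few genes that entered the fits and counts are not reported here by name.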

Additional observations from a re-analysis of the deposited data

Results flagged for a closer look

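In 3 of the 116 groups of 4 libraries behind 58 of the 59 genes named by rule (1 is not reported here), 1 library lay far from the other 3 (by Dixon's test at the 95% level). Chance alone gives about 1 such group in 20. In control 3, gtf2a1 measured 29.0 TPM, against 31.8 to 32.0 TPM in the other control libraries. In cold 1, ccnt2a measured 55.1 TPM, against 64.9 to 65.9 TPM. The TATA-binding protein gene tbp measured 27.9 TPM in cold 3, against 23.2 to 23.9 TPM. The calls of gtf2a1 and tbp held without each of these libraries.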

How the results depend on the processing

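The counts of called members and of called related genes stayed within 1.5 times the reported counts under every alternative run. Members higher in cold numbered from 20 (control 4 and cold 2 both left out) to 37 (median-of-ratios scaling), against 28, and members lower from 13 to 18, against 17. With the 12 tested subunits listed by identifier added to the reported fit, 32 were higher and 19 lower. Of all tested genes in that fit, 13.0% were higher and 23.6% lower. For fits other than the reported one and median-of-ratios scaling, shares over all tested genes are not given here. Same-numbered libraries correlated between -0.226 and 0.0542 in their deviations from group means, so the numbers were not taken as pairs. With the number as a replicate block, 22 members were higher and 14 lower, and the named calls of gtf2h3, ints8, ints14 and med1 were lost (limma adjusted p = 0.0960, 0.0782, 0.0853 and 0.0784). Restricted to genes of polymerase II in the reported fit, 26 of 88 members (29.5%) were higher and 15 (17.0%) lower, against 13.0% and 23.6%. Of the 59 genes named by rule, 40 kept direction and call throughout. Signs turned only for genes that were not called. After median-of-ratios scaling the log2 change was 0.00641 for gtf2ird1, 0.0566 for ccnt2b, 0.0711 for supt5h and 0.0242 for supt16h. Across fits without 1 library it ran from -0.0823 to 0.0217 for ccnt2b and from -0.0518 to 0.00820 for supt5h. Of the 45 called members, 34 kept their call without any single library, and the 11 others were gtf2h3, ints8, ints14, med1, med7, med9, med16, med17, med28, med30 and supt4h1. Without control 4 and cold 2, 14 calls were lost, among them polr2c, med18 and ints7 (limma adjusted p = 0.0515, 0.0601 and 0.0510). Fewer libraries entered those fits. The depth behind a value is unknown, which limits statements on low members such as taf1a.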

Other observations

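A pair of related genes, chosen after their values were seen, stood apart in single libraries. The TFIIIB gene bdp1 measured 8.84, 9.39, 8.58 and 42.2 TPM in control and 11.4, 12.1, 13.3 and 14.0 TPM in cold, so control 4 was far above the other 7 libraries, and bdp1 was called higher in cold without it (limma adjusted p = 0.00746). The pausing factor gene nelfb measured 15.02, 24.2, 15.7 and 14.4 TPM in control and 21.8, 13.03, 13.2 and 11.7 TPM in cold, with 1 library of each group, control 2 and cold 1, above the other 6.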
